A study of Mus musculus with 6 samples.

Results

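Transcripts of 10 mucin and goblet cell genes were examined in the outer wall of the mouse eye. The membrane mucins were Muc1, Muc4, Muc16 and Muc20, the secreted gel-forming mucins were Muc5ac and Muc5b, and the goblet cell factors were Agr2, Spdef, Tff1 and Tff3. A gene was read from probe sets whose platform annotation held its symbol and no other, and the probe set of highest mean over all arrays was kept. By that rule 9 of the 10 genes were measured among 22180 genes in all. Muc20 had no such probe set, and no level is given for it.

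The tissue was the back wall of the eye, taken as 1 piece of sclera, choroid and retinal pigment epithelium (RPE), from untreated mice at an age of 12 months. One group of 3 samples came from mice heterozygous for the 5XFAD transgenes, which include human APP with familial Alzheimer's disease mutations and are driven by the Thy1 promoter, active mainly in neurons. The other group of 3 samples came from wild-type littermates without the transgenes. Each sample was hybridised to 1 array, and whether a sample held 1 animal or a pool is not given in the sources used here, so that each p-value rests on variation among samples that could in part be technical.

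Mucins are long proteins whose serine- and threonine-rich stretches carry dense O-linked sugars. Membrane mucins are anchored in the apical membrane of epithelial cells and form the glycocalyx of the cornea and conjunctiva, whereas gel-forming mucins are released by goblet cells of the conjunctiva and link through disulfide bonds into mucus. Goblet cells depend on the transcription factor encoded by Spdef and on the endoplasmic reticulum protein encoded by Agr2, and they secrete trefoil peptides with their mucins. Neither mucus nor goblet cells are part of the normal RPE, choroid or sclera.

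Array medians ran from 5.59 to 5.71 (log2 intensity) and correlations between arrays over all probe sets from 0.981 to 0.990. The tissue label was met by the RPE isomerase gene Rpe65, which lay between 12.23 and 12.78 in all 6 arrays. App, the mouse counterpart of a transgene, differed by 0.09 ± 0.13 (log2, 5XFAD minus wild type, ± SE), but mouse probes need not bind the human transcript. In bulk tissue, fewer cells of a type and less RNA per cell cannot be told apart.

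Of the 9 measured genes, 2 had higher values in 5XFAD tissue at an unadjusted p under 0.05, the membrane mucin genes Muc4 and Muc1, and in both the 3 5XFAD arrays and the 3 wild-type arrays did not overlap. The secreted mucin genes and the goblet cell factors showed no such difference. After Benjamini-Hochberg adjustment over all genes, 0 of the 9 passed 0.05 in limma. Over all genes tested, 0.0225% passed the adjusted threshold, and 6.28% had an unadjusted p under 0.05, 2.89% as higher and 3.39% as lower. The groups did not overlap in 11.3% of all genes, with 5XFAD above in 4.72% and below in 6.62%. The median log2 difference was -0.05 over the 9 genes and -0.01 over all genes, with 4 of the 9 positive against 47.2% of all genes.

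The promoters of Muc4 and Muc1 are shown because these were the members with non-overlapping groups. RefSeq promoter sequences on GRCm38.p6, from 250 bases before to 50 after the annotated start, matched 6 of the 10 genes. Capitals mark 4 motifs searched on both strands. They are the TATA box (TATAAA), the GC box (GGGCGG), the CACCC element of KLF factors and the AGGAA core of many ETS factors. No 2 matches overlap in these sequences. The Muc4 window is chr16:32735636-32735935 on the plus strand and the Muc1 window chr3:89228806-89229105 on the plus strand.
Muc4: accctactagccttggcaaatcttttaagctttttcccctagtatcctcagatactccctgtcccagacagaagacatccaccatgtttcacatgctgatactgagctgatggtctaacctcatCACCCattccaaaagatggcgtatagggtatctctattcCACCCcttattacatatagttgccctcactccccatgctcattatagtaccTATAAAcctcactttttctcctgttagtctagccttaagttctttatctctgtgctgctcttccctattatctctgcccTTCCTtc
Muc1: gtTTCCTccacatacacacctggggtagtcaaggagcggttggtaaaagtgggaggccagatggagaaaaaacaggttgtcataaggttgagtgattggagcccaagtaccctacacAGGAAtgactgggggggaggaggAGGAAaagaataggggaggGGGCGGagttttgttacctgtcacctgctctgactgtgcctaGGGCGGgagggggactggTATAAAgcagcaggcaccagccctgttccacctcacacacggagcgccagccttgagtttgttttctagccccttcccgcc

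Both windows held 1 TATAAA match, starting at position -36 from the annotated start in Muc4 and -31 in Muc1. The 4 other matched members, Muc16, Muc20, Agr2 and Spdef, held 0 in theirs, and 13.6% of all 32851 promoters in the table held one. Muc4 had 2 CACCC matches, 0 GC boxes and 1 AGGAA match, on the minus strand. Muc1 had 0 CACCC matches, 2 GC boxes and 3 AGGAA matches. Of all promoters 57.5% held a CACCC match, 35.7% a GC box and 66.7% an AGGAA match. These are matches of exact letters in a window, and no binding was measured. Muc4 and Muc1 were picked by their values and Muc20 has no level here. The counts therefore describe these windows and are not tied to the difference between genotypes.

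Muc4, a large membrane mucin of stratified ocular surface epithelium whose membrane-bound part can associate with the receptor encoded by Erbb2, had the largest difference of the 9 genes. Its log2 intensity was 6.44, 6.15 and 7.11 in 5XFAD replicates 1, 2 and 3, and 5.31, 5.23 and 5.45 in wild-type replicates 1, 2 and 3. The 3 wild-type arrays were tightly grouped, the 5XFAD arrays were spread more widely, and 5XFAD replicate 3 was the highest. The means were 6.57 ± 0.49 and 5.33 ± 0.11 (SD, n = 3 per group), a 2.36-fold higher level in 5XFAD with a 95% interval from 1.69 to 3.28. The log2 difference of 1.24 ± 0.21 had an unadjusted p of 0.00022 and did not pass over all genes (limma, Benjamini-Hochberg adjusted p = 0.15). It ran from 0.97 without 5XFAD replicate 3 to 1.44 without 5XFAD replicate 2.

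Muc1, a membrane mucin found on most simple and stratified epithelia, showed a smaller difference. Its log2 intensity was 6.01, 5.87 and 5.84 in 5XFAD replicates 1, 2 and 3, and 5.23, 5.55 and 5.73 in wild-type replicates 1, 2 and 3. The groups did not overlap, but wild-type replicate 3 lay only just below the lowest 5XFAD array. The level was 1.32-fold higher in 5XFAD (95% interval 1.06 to 1.63), with a log2 difference of 0.40 ± 0.14 that did not pass (limma, unadjusted p = 0.017, Benjamini-Hochberg adjusted p = 0.67). Within each genotype the array of highest Muc1 was also that of highest mean over 10 skeletal muscle genes. These were 5XFAD replicate 1 (7.83) and wild-type replicate 3 (7.39). The muscle mean was itself higher in 5XFAD, at 7.11 against 6.43, with overlapping groups. With that mean as a covariate the Muc1 difference was 0.26 and the unadjusted limma p was 0.083. The match rests on 1 array per genotype, and the part of muscle in the Muc1 values was not tested. When 5XFAD replicate 1 was left out the difference was 0.35 and the unadjusted limma p 0.060. Leaving out wild-type replicate 1 gave 0.067, with a difference of 0.26. With the mean of 12 RPE marker genes as a covariate the difference was 0.53 ± 0.31 and the unadjusted limma p 0.12. That mean lay apart between the groups, so this fit cannot separate it from genotype.

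Muc16, the largest membrane mucin of the corneal and conjunctival surface, was the dimmest of the 9 genes and lay at percentile 11.5 of all probe sets. Its log2 intensity was 3.23, 3.39 and 3.61 in 5XFAD and 3.41, 3.17 and 3.91 in wild type, in replicate order. The values interleaved, and the difference was -0.09 ± 0.18 (95% interval -0.50 to 0.33; limma, Benjamini-Hochberg adjusted p = 0.97). The sign turned when 5XFAD replicate 1 (0.0031) or wild-type replicate 3 (0.12) was left out. At such an intensity background compresses differences.

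Muc20 is the protein-coding neighbour of Muc4 in the RefSeq gene order and encodes a small membrane mucin. The probe set annotated with the symbols of both genes, which was assigned to neither, read 5.47, 5.38 and 5.56 in 5XFAD and 5.38, 5.45 and 5.52 in wild type. Its groups interleaved, at 5.47 ± 0.09 against 5.45 ± 0.07 (SD, n = 3 per group), and it did not show the separation of the Muc4 probe set.

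**Figure D1:**
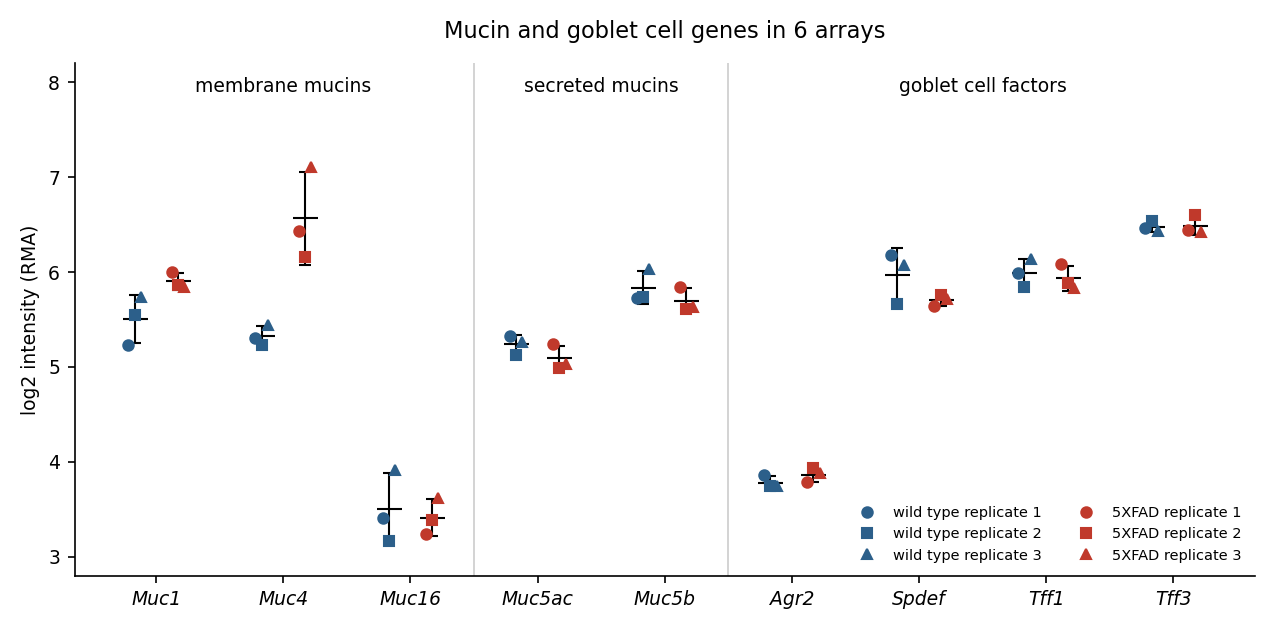
Log2 intensity (RMA, vertical axis) of the 9 measured mucin and goblet cell genes in each array; marker shapes are replicates, blue is wild type, red is 5XFAD, and black bars are the mean and SD of 3 arrays. Muc4 separates the groups most widely, at 6.57 against 5.33, and in the secreted mucins and goblet cell factors red and blue points overlap.

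The gel-forming mucins, the product of conjunctival goblet cells, had slightly lower values in 5XFAD that lay within the replicate spread. Muc5ac, the main gel-forming mucin of the tear film, read 5.24, 4.99 and 5.03 in 5XFAD and 5.33, 5.12 and 5.26 in wild type. 5XFAD replicates 2 and 3 lay below every wild-type array, and replicate 1 lay among them. The difference was -0.15 ± 0.11 (95% interval -0.40 to 0.10; limma, Benjamini-Hochberg adjusted p = 0.92). Muc5b, a gel-forming mucin of airways and glands encoded next to Muc5ac, read 5.85, 5.61 and 5.63 against 5.73, 5.74 and 6.03. Its difference of -0.14 ± 0.12 (95% interval -0.41 to 0.14) did not pass either (limma, Benjamini-Hochberg adjusted p = 0.93). It was -0.27 with the skeletal muscle mean as a covariate (limma, unadjusted p = 0.046) and -0.04 when wild-type replicate 3 was left out. The upper ends of these intervals lay below the lower end of the Muc4 interval, 0.76. Muc4 had the largest difference of the measured members, and the intervals are not adjusted for that choice.

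The contrast between the measured membrane and secreted members was described per array as the mean of Muc1, Muc4 and Muc16 minus the mean of Muc5ac and Muc5b. Its level depends on probe affinity, so that it is read between arrays and not as a ratio of transcripts. It was -0.32, -0.16 and 0.19 in 5XFAD replicates 1, 2 and 3, and -0.88, -0.78 and -0.62 in the wild-type replicates. The lowest 5XFAD array was above the highest wild-type array, and the means were -0.10 ± 0.26 and -0.76 ± 0.13 (SD, n = 3 per group), which differed by 0.66. With Muc4 left out, a step chosen after its values were seen, the difference was 0.30 and the groups overlapped, since 5XFAD replicate 1 (-0.93) lay below wild-type replicate 3 (-0.82). The 3 measured membrane mucins had a median difference of 0.40 and ranged from -0.09 to 1.24, while both secreted mucins lay near -0.14. The 8 other mucin genes measured were not part of this contrast and differed by -0.13 to 0.07. It therefore describes these members and not membrane and secreted mucins in general.

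**Figure D2:**
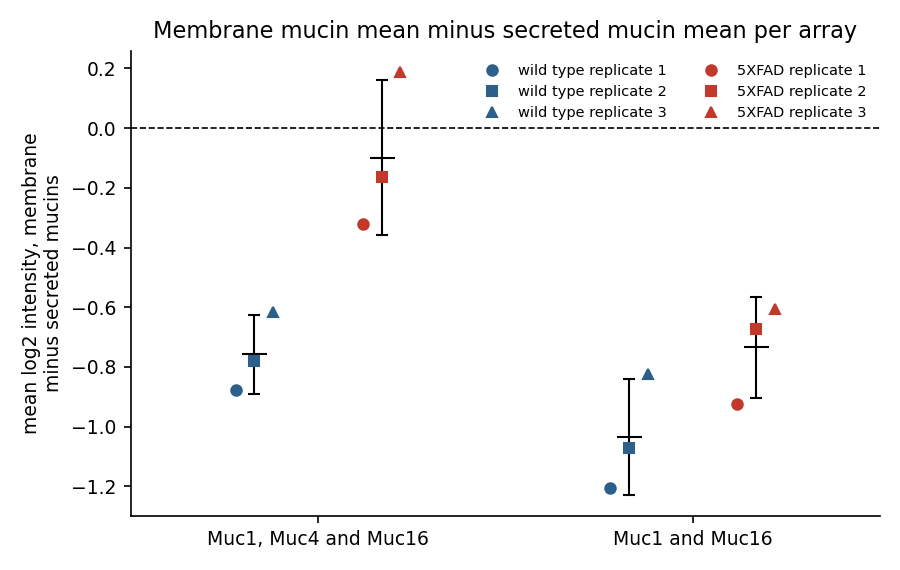
Mean log2 intensity of the membrane mucins minus that of the secreted mucins (vertical axis) per array, with Muc4 on the left and without it on the right; marker shapes are replicates and black bars the mean and SD of 3 arrays. The difference between the group means is 0.66 with Muc4 and 0.30 without it, where the groups overlap.

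In the main comparison none of the 4 goblet cell factors differed at an unadjusted p under 0.05, and all had overlapping groups. Spdef, the ETS transcription factor gene that drives goblet cell differentiation, read 5.64, 5.76 and 5.71 in 5XFAD and 6.18, 5.66 and 6.08 in wild type. Wild-type replicates 1 and 3 lay above every 5XFAD array, and wild-type replicate 2 lay among them. The difference was -0.27 ± 0.14 (95% interval -0.58 to 0.05; limma, unadjusted p = 0.089, Benjamini-Hochberg adjusted p = 0.86), with 1 wild-type array out of line with the other two. Its unadjusted limma p was under 0.05 in 4 of 16 alternatives. The difference was -0.42 when wild-type replicate 2 was left out (limma, unadjusted p = 0.0045) and -0.16 when wild-type replicate 1 was. With all 6 arrays it was -0.28 under quantile normalization and -0.33 with array weights (limma, unadjusted p = 0.049 and 0.032). With the RPE marker mean as a covariate it was -0.89 (limma, unadjusted p = 0.0030), and that mean itself lay apart between the groups, from 10.70 to 10.75 in 5XFAD and from 10.87 to 11.02 in wild type.

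Agr2, which encodes a protein disulfide isomerase that mucin folding requires, lay at percentile 16.9 of all probe sets. It read 3.78, 3.93 and 3.88 in 5XFAD and 3.86, 3.74 and 3.74 in wild type, a difference of 0.08 ± 0.10. Its dim neighbour and paralog Agr3 differed by -0.04 ± 0.10. For both genes the difference was smaller than its SE.

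The trefoil peptide genes are clustered in the order Tff3, Tff2 and Tff1, and their products help to protect and repair mucosal surfaces. Tff1 read 6.08, 5.88 and 5.83 in 5XFAD and 5.99, 5.84 and 6.14 in wild type, a difference of -0.05 ± 0.12. Tff3, the trefoil peptide of goblet cells in the conjunctiva and intestine, read 6.44, 6.60 and 6.42 against 6.46, 6.54 and 6.43. The Tff3 difference of 0.01 ± 0.10 had a 95% interval from -0.21 to 0.24. Tff2, between them, differed by -0.14 ± 0.17. All 3 genes had overlapping groups. Tff1 and Tff3 changed sign when wild-type replicate 3 was left out (0.02 and -0.01). Tff3 also changed sign without 5XFAD replicate 2 (-0.04).

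**Figure D3:**
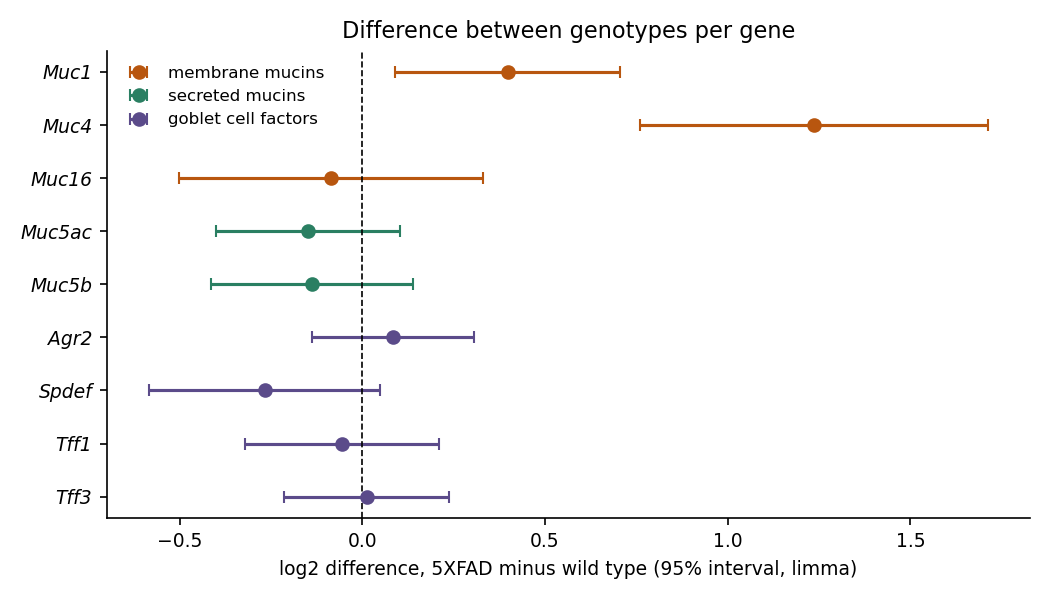
Log2 difference between 5XFAD and wild type (horizontal axis) of each measured gene with its 95% interval from limma, unadjusted for the number of genes; colours mark the class and the dashed line is 0. The intervals of Muc4 (0.76 to 1.71) and Muc1 (0.09 to 0.70) lie above 0, and those of the other 7 genes include it.

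The genes whose pattern over the 6 arrays was most like that of Muc4, by Pearson correlation, were Aqp3 (0.990), Rara (0.988), Dsc2 (0.983), 1700045H11Rik (0.981) and Il1rl2 (0.980). The arrays share their genotype split, which sets much of such a correlation, and with 6 points it serves as a description. Aqp3, an epithelial water and glycerol channel, read 6.62, 6.52 and 7.37 in 5XFAD and 5.07, 5.17 and 5.36 in wild type. As for Muc4, replicate 3 was the highest 5XFAD array and replicate 2 the lowest. Dsc2, encoding a desmosomal cadherin, differed by 0.63 ± 0.12, and Il1rl2, encoding the receptor of interleukin-36 cytokines, by 0.25 ± 0.10. Rara, a retinoic acid receptor gene, differed by only 0.10 ± 0.09.

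Correlation with Muc4 was 0.709 for Muc1, 0.062 for Muc16 and -0.545 for Muc5ac. It was 0.485 for Agr2, -0.541 for Spdef and -0.409 for Muc5b, and -0.254 and -0.237 for Tff1 and Tff3. Among keratin genes of surface epithelium it was 0.965 for Krt15, 0.928 for Krt4 and 0.819 for Krt13, but 0.621 for Krt12, below the value of Muc1.

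**Figure D4:**
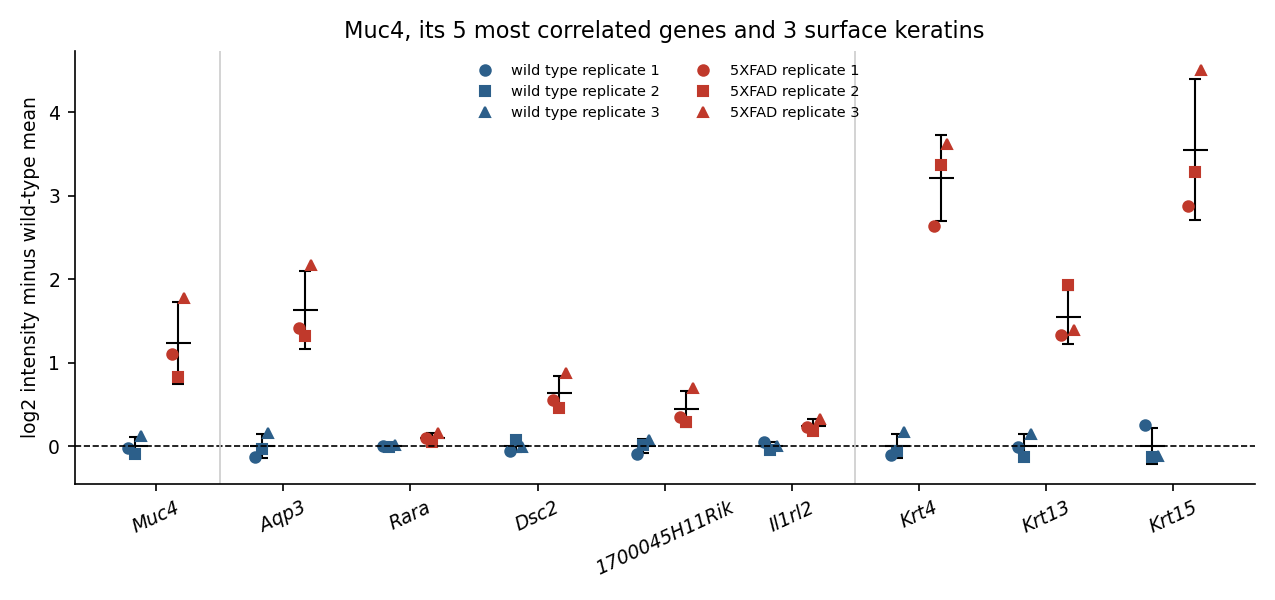
Log2 intensity minus the wild-type mean of the gene (vertical axis) per array for Muc4, the 5 genes most correlated with it and 3 keratin genes of surface epithelium; marker shapes are replicates and black bars the mean and SD of 3 arrays. In Muc4 and Aqp3 5XFAD replicate 3 is the highest array, while in Krt13 it is replicate 2.

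Part of the markers of stratified surface epithelium had higher values in the same arrays as Muc4. Of 16 such genes 15 were measured. At an unadjusted p under 0.05 (limma) 9 had higher and 0 lower values, against 2.89% and 3.39% of all genes. The adjusted threshold was passed by 4 keratin genes, of 5 genes over all tested. This list, like the members and the other lists, was chosen with earlier results of these data known. The shares therefore describe the list and are no test of it. Pax6, 1 of the 9, differed by 1.07 ± 0.29, but its correlation with Muc4 was only 0.621. The other 6 were not under that p: Krt12, Trp63 (0.09 ± 0.12), Klf5 (-0.01 ± 0.11), Perp (-0.01 ± 0.11), Aldh3a1 (-0.07 ± 0.21) and Dsp (-0.19 ± 0.18), and the correlation of the last 4 with Muc4 ran from -0.270 to -0.052. The mean of the 15 genes ran from 6.46 to 6.96 in 5XFAD and from 5.76 to 5.82 in wild type. Krt4 and Krt13, the keratin pair of conjunctival and other mucosal epithelium, had 9.26 and 2.92 times the wild-type level, with Benjamini-Hochberg adjusted p-values of 0.0018 and 0.021 in limma. Krt12, the keratin that defines corneal epithelium, read 4.85, 5.66 and 6.22 in 5XFAD and 5.30, 4.87 and 5.35 in wild type, with overlapping groups. The ETS factor genes of epithelia Elf3 (0.67 ± 0.16) and Ehf (0.51 ± 0.18) also had groups apart, but neither passed (Benjamini-Hochberg adjusted p from limma 0.40 and 0.70). The part of these cells in the Muc4 result was not tested.

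Markers of simple and glandular epithelium showed no shared direction. All 13 were measured, with a median of -0.06, and their mean ran from 6.08 to 6.21 in 5XFAD and from 6.12 to 6.21 in wild type. The water channel gene Aqp5, a marker of lacrimal acini and corneal epithelium, was higher in all 5XFAD arrays (0.33 ± 0.10), and the ETS factor gene Elf5 lower with overlapping groups (-0.34 ± 0.15). Neither passed over all genes (limma, Benjamini-Hochberg adjusted p = 0.56 and 0.80). Of 4 measured genes of B cells and plasma cells 1, Jchain, whose product joins secreted immunoglobulin A, was under an unadjusted p of 0.05, at 0.70 ± 0.24 with overlapping groups (limma, Benjamini-Hochberg adjusted p = 0.66). The other 3 were Ighm (0.45 ± 0.44), Mzb1 (0.12 ± 0.12) and Cd79a (0.00 ± 0.18).

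Some marker genes of other cells in the dissection also differed between the groups at an unadjusted p under 0.05 (limma). None of them passed the adjusted threshold. Of 12 RPE genes 6 were lower and 0 higher, of 10 skeletal muscle genes 3 were higher and 0 lower, and of 8 macrophage genes 3 were higher and 0 lower. Of 8 fibroblast and sclera genes 1 was higher, and of 7 rod genes 0 differed. Over all genes tested 2.89% were higher and 3.39% lower at that p. The difference had the opposite sign in 3 of the RPE genes, 1 of the muscle genes and 1 of the macrophage genes. For muscle the list mean ran from 6.50 to 7.83 in 5XFAD and from 5.88 to 7.39 in wild type. For macrophages it ran from 9.19 to 9.60 in 5XFAD and from 9.16 to 9.26 in wild type. For rods it varied among arrays of both groups, from 5.66 to 6.82 in 5XFAD and from 5.74 to 6.86 in wild type. The part of these cells in the values of the mucin genes was not tested. Fits were run with the muscle or the RPE marker mean as a covariate. The RPE mean lay apart between the groups, so its fit cannot separate RPE content from genotype.

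The other genes of the mucin system were followed in 4 lists of 81 genes, of which 75 were measured. None passed the adjusted threshold, while 3 were higher and 3 lower at an unadjusted p under 0.05 (limma), near the shares of all genes, 2.89% and 3.39%. The median difference of the 75 genes was -0.02. Among 8 other mucin genes none was under an unadjusted p of 0.05, and differences ran from -0.13 for Mucl3 to 0.07 for Muc3a. Muc2, the gel-forming mucin of the intestine encoded beside Muc5ac, differed by 0.05 ± 0.12, and Muc6, a gel-forming mucin of gastric glands, by 0.00 ± 0.12.

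Of 30 genes for mucin O-glycosylation, 2 were higher and 1 lower at an unadjusted p under 0.05, with a median of 0.02. Galnt12, one of the transferases that start O-glycan chains, read 5.97, 6.10 and 6.13 in 5XFAD and 5.84, 5.68 and 5.68 in wild type, with groups apart. St6galnac1, which caps the first sugar of the chain with sialic acid, was dim and differed by 0.36 ± 0.14 with overlapping groups. Galnt1, a widely expressed transferase of the same family as Galnt12, read 9.46, 9.41 and 9.35 against 9.61, 9.74 and 9.75, lower in every 5XFAD array. None of the 3 passed over all genes (limma, Benjamini-Hochberg adjusted p = 0.61 for Galnt12, 0.73 for St6galnac1 and 0.65 for Galnt1).

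Of 25 further goblet and secretory genes 1, Best2, was under an unadjusted p of 0.05. Differences were negative in 18 and positive in 7, with a median of -0.05, and 47.2% of all genes were positive. Best2, a chloride and bicarbonate channel of colonic goblet cells that is also a gene of the ciliary body, read 7.16, 7.32 and 6.93 in 5XFAD and 6.49, 7.01 and 6.16 in wild type. The groups overlapped, and the difference of 0.58 ± 0.20 did not pass (limma, Benjamini-Hochberg adjusted p = 0.67). The goblet cell genes Clca1 (0.06 ± 0.11) and Fcgbp (-0.16 ± 0.12) and the transcription factor genes Foxa1 (-0.19 ± 0.11) and Foxa3 (-0.04 ± 0.13) were chosen after their values were seen, as known goblet cell genes, and did not differ beyond the threshold.

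Among 12 partners and sheddases of the epithelial glycocalyx, 2 were lower at an unadjusted p under 0.05 and 0 higher. Over all genes 3.39% were lower and 2.89% higher. Erbb3, a receptor that pairs with the Erbb2 product, read 7.70, 7.51 and 7.42 in 5XFAD and 7.79, 7.95 and 7.79 in wild type. Egfr, the receptor of epidermal growth factor, differed by -0.25 ± 0.11. Both had all 5XFAD arrays below wild type, as had 6.62% of all genes. Neither passed over all genes (limma, Benjamini-Hochberg adjusted p = 0.71 for Erbb3 and 0.79 for Egfr). Erbb2, chosen after its values were seen as the known partner of Muc4, differed by -0.04 ± 0.10.

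**Figure D5:**
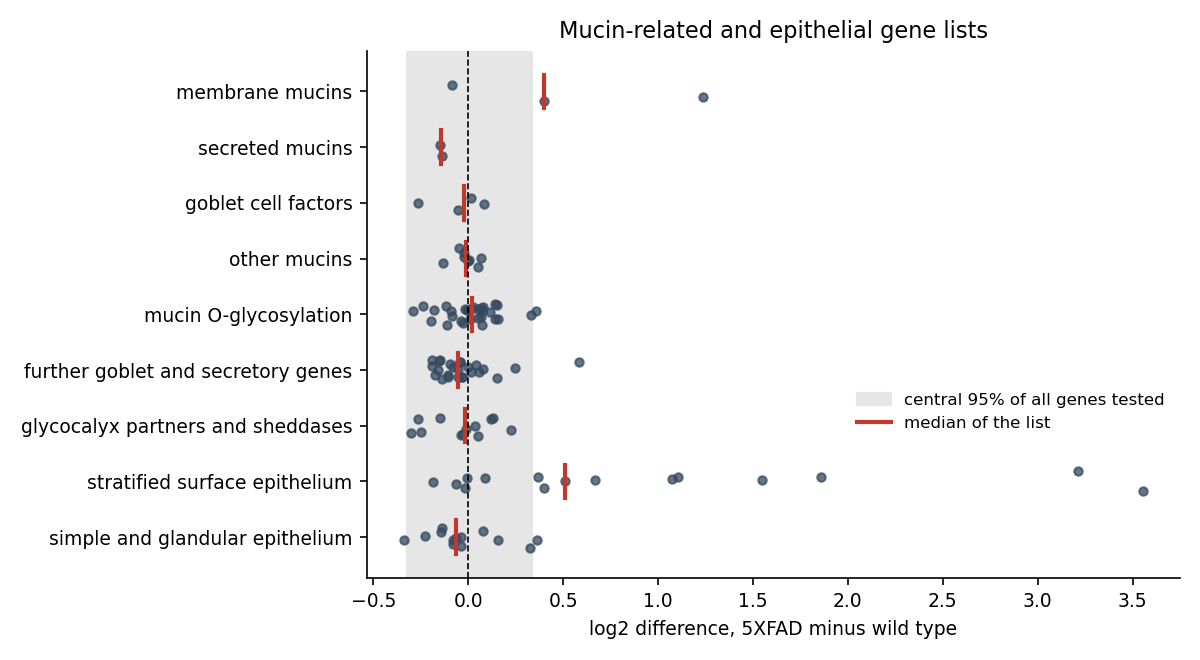
Log2 difference between 5XFAD and wild type (horizontal axis) of each measured gene, by list; points are genes, red bars list medians and the grey band holds the central 95% of all genes tested (-0.32 to 0.34). The medians of the 4 related lists lie between -0.05 and 0.02, and the stratified surface epithelium list spreads to the right with a median of 0.51.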

How the data were processed

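The deposited values are log2 intensities, 1 per probe set and array. The submitters' processing notes name RMA and Affymetrix Expression Console 1.1. Background correction, quantile normalization and probe summary are the steps of RMA. Filters and pooling are not stated in these sources, and no detection calls were used. Of 33793 probe sets, 23521 had 1 symbol, 1814 several and 8458 none in the platform annotation. Groups came from the sample titles.

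All 22180 genes were fitted with limma 3.58.1 in R 4.3.3 (lmFit, eBayes, two-sided, no covariate), with Benjamini-Hochberg adjustment over all genes. Lists are described by counts and medians, with no set test. Members and lists were chosen with earlier results of these data known. Named were all members, list genes under an unadjusted p of 0.05 (up to 4 per list), mucin and trefoil neighbours, the 5 genes most correlated with Muc4 and set markers. Other names were chosen after their values were seen: Elf3, Ehf, the other surface epithelium and B cell genes, Mucl3, Muc3a, Agr3, and those said so in the text. On simulated data with 200 changed genes among 22180, 82.1% of those changed by 1 on the log2 scale were recovered. Of those changed by 0.5, 22.1% were recovered, and false calls averaged 6.3 per simulation. Genes were drawn independently, and 200 changed genes make the adjustment more lenient than in these data, where 5 genes passed. The recovered shares therefore need not hold for the members. Alternatives were a replicate block, filters on dim genes, other normalizations, priors, array weights, probe set rules, covariates and arrays left out.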

Additional observations from a re-analysis of the deposited data

How the results depend on the processing

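In all 17 alternatives 0 members passed the adjusted threshold (limma; 2 at an unadjusted p under 0.05 in the main comparison), and Muc4, given in 16, was higher in each, from 0.97 to 1.44, with unadjusted p up to 0.023 and Benjamini-Hochberg adjusted p from 0.087 to 0.49. Members higher at an unadjusted p under 0.05 numbered 0 without the dimmest 50% of genes, a filter that left Tff3 alone to test, 1 with the skeletal muscle or RPE covariate, and 1 to 2 with an array left out. Members lower numbered 1, Spdef, with quantile normalization, array weights or the RPE covariate. They numbered 1, Muc5b, with the skeletal muscle covariate, and 0 to 1 with an array left out. Related genes higher numbered 1 without the dimmest 50% and 1 with the RPE covariate, and related genes lower 1 to 3 with an array left out. All genes past the adjusted threshold, 5 in the main comparison, numbered 8 without the dimmest 30%, 9 with median centring, 9 with a trended robust prior, 8 with array weights, 25 with the RPE covariate and 3 to 19 with an array left out. The membrane minus secreted difference of 0.66 was 0.30 with Muc4 left out, which was chosen after seeing the data, and 0.52 to 0.77 with an array left out. Tff3 turned to -0.0040 with quantile normalization, and Agr2 to -0.034 with the RPE covariate. That covariate also moved Muc16 to -0.64, Tff1 to -0.31, Muc5ac to -0.32, Muc5b to -0.25 and Spdef to -0.89, with SEs from 0.22 to 0.37. With an array left out, Muc16 ran from -0.25 to 0.12, Tff1 from -0.13 to 0.021 and Tff3 from -0.043 to 0.043. The cause of these shifts was not tested, and the RPE marker mean cannot be separated from genotype here.

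The sources used here do not say that equal replicate numbers pair samples. Deviations from the group means correlated by -0.06, -0.05 and 0.13 for equal numbers 1, 2 and 3. For unequal numbers they correlated by -0.08 to 0.13, so these values cannot decide whether samples were paired. The replicate block gave 6 genes past the adjusted threshold against 5, and Muc4 a Benjamini-Hochberg adjusted limma p of 0.087. The number of arrays limits precision, and dim probe sets such as those of Muc16 and Agr2 compress differences.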
